A study of Mus musculus with 8 samples.

Results

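The genes described here are those of the oxidative phosphorylation system in 3 mouse lines named EHE26, EHE17 and EHE6, where EHE stands for epithelioid hemangioendothelioma, a cancer whose cells carry markers of blood vessel lining. They were taken by gene symbol: protein-coding genes whose symbol starts with mt-Nd, mt-Co, mt-Atp or mt-Cyt for the part encoded in mitochondrial DNA, and with Ndufa, Ndufb, Ndufc, Ndufs, Ndufv, Uqcr, Cox4i, Cox5, Cox6, Cox7, Cox8 or Atp5, together with Sdha, Sdhb, Sdhc and Sdhd, for the nuclear part. Of 55401 gene identifiers with counts, 107 matched, 13 of them mitochondrially encoded and 94 nuclear. The nuclear members comprised 84 subunits and 10 assembly or other associated factors that share the prefixes, such as Ndufaf1 and Cox7a2l. All 13 mitochondrially encoded genes and 87 of the 94 nuclear ones passed the filter on low counts. The lines were compared for the subunits encoded in each of the 2 genomes.

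The groups were EHE26 (2 libraries), EHE17 (3 libraries) and EHE6 (3 libraries), which are named by cell line alone in the labels, with no treatment, genotype or passage given. Each library was made from polyadenylated RNA of cultured cells, and each group is a single line. The labels do not say whether libraries of a line came from separate cultures, so p-values here refer only to library-to-library spread, which may be technical. Total counts were 44620965 to 96237665 per library, and levels are given as CPM, counts scaled to the TMM-adjusted library size.

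Replicate 3 of EHE17 and replicate 3 of EHE6 stood apart from the other libraries of their lines. The first principal component of all genes that passed the filter on low counts held 56.2% of the variance. On it EHE26 scored 126 and 148, EHE17 scored -114, -103 and 41.7, and EHE6 scored -106, -122 and 128. The 2 EHE26 libraries and these 2 replicate 3 libraries had 20066 to 20682 genes with a read, against 24462 to 25177 in the other 4. They also had the lowest total counts, 44620965 to 55802651, against 69366708 to 96237665 in the other 4. The part of sequencing depth in the number of genes read was not tested. The common biological coefficient of variation between libraries of a line was 0.600. Endothelial markers (Pecam1, Cdh5, Kdr, Tek, Tie1, Erg, Esam, Emcn, Cldn5 and Vwf) were above 1 CPM in 8 to 10 of 10 cases in every library. Pecam1, an adhesion molecule of endothelial cells, had 1401 and 1295 CPM in EHE26, 1675, 1651 and 1382 CPM in EHE17 and 1495, 1658 and 1179 CPM in EHE6. The 10 markers as a list were less even than Pecam1. Their median log2 fold change in EHE26 was -1.59 against EHE6, with 10 negative, and -1.18 against EHE17, with 9 negative. Replicate 3 lay below replicates 1 and 2 by a median log2 difference of -3.03 in EHE6 and -0.65 in EHE17.

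The respiratory chain is a set of membrane complexes in the inner mitochondrial membrane. Complexes I and II pass electrons to ubiquinone, complex III to cytochrome c and complex IV to oxygen, and complex V, the ATP synthase, uses the proton gradient that results. Mitochondrial DNA encodes core subunits of complexes I, III, IV and V, is transcribed as long precursors from both strands by its own polymerase, and its messenger RNAs carry short poly(A) tails. All subunits of complex II and all other subunits come from nuclear genes, which are transcribed singly and translated in the cytosol. Of the mitochondrially encoded members, 7 belong to complex I, 1 to complex III, 3 to complex IV and 2 to complex V.

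Nuclear DNA of the mouse also holds copies of mitochondrial DNA, and some of these copies are annotated as genes. A read from a mitochondrial transcript can then match a nuclear locus equally well. The sequences below show the 2 situations, an identical copy and a diverged one. The first pair gives the first 60 bases of mt-Co2 at chrM:7013-7072 on the plus strand and of its copy Gm28661 at chr1:24615506-24615565 on the minus strand (GENCODE transcripts on GRCm38). The second pair gives mt-Nd2 at chrM:4580-4639 on the plus strand and its copy Gm13339 at chr2:22590336-22590395 on the minus strand, with the differing bases in capitals.
mt-Co2: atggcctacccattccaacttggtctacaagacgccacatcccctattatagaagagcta
Gm28661: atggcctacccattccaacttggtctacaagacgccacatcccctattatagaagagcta
mt-Nd2: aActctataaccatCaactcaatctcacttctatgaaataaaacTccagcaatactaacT
Gm13339: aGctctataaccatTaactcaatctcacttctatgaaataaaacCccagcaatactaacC

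The mt-Co2 stretch had 0 differences from its copy, and over all 681 aligned bases Gm28661 was identical to mt-Co2. The mt-Nd2 stretch had 4 differences in 60 bases, and over 510 aligned bases Gm13339 had 17. Of all 50-base windows of a transcript, the share found unchanged in an annotated transcript of another gene was 100% for mt-Co2, 99.9% for mt-Co3, 99.5% for mt-Atp6, 98.8% for mt-Nd4l and 98.0% for mt-Nd3. It was 62.2% for mt-Nd4, 51.1% for mt-Co1, 8.2% for mt-Nd2 and 7.6% for mt-Nd5. For mt-Nd1, mt-Nd6, mt-Cytb and mt-Atp8 it was 0. The copies of mt-Co2, mt-Atp6, mt-Co3, mt-Nd3, mt-Nd4l and part of mt-Nd4 lie together on chromosome 1 and were 100% identical over their aligned bases. Counts of these members are therefore uncertain, because the treatment of reads with several matches is not given in the sources used here.

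Mitochondrially encoded RNA held a smaller share of the counts in EHE26 than in either other line, while 1 of its 13 genes, mt-Nd2, passed the adjusted threshold and no nuclear member did. As a share of all counts, the 13 mitochondrial genes held 0.268 and 0.244% in EHE26, 1.45, 1.27 and 0.652% in EHE17 and 1.38, 1.68 and 0.738% in EHE6. The counting error of each share was small, with 95% Wilson intervals at most 0.00605 percentage points wide, which cover counting error only. Every EHE26 library was below every other library, and replicate 3 was the lowest library of EHE17 and of EHE6. The line means were 0.256 ± 0.0169% in EHE26 (SD, n = 2), 1.12 ± 0.418% in EHE17 (SD, n = 3) and 1.27 ± 0.483% in EHE6 (SD, n = 3). The EHE26 mean was 0.228 of the EHE17 mean and 0.202 of the EHE6 mean.

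As a share of all counts, the 94 nuclear members held 0.734 and 0.700% in EHE26, 0.601, 0.897 and 0.759% in EHE17 and 0.842, 0.628 and 0.857% in EHE6. These ranges overlapped in all 3 lines. Counts of mitochondrially encoded over nuclear members gave a ratio of 0.366 and 0.349 in EHE26, 2.41, 1.41 and 0.859 in EHE17 and 1.64, 2.68 and 0.861 in EHE6. Both EHE26 ratios lay below the lowest ratio of the other lines, which came from the replicate 3 libraries. The share of histone genes of the Hist clusters, whose messenger RNA mostly carries no poly(A) tail, was 0.0161 and 0.0137% in EHE26, 0.00337, 0.00605 and 0.00381% in EHE17 and 0.00629, 0.00384 and 0.0100% in EHE6. Both EHE26 libraries were the highest here, and the part of RNA selection or RNA quality in the mitochondrial share was not tested. A lower share in bulk RNA does not tell less RNA in each cell apart from fewer cells of a kind that holds much of it.

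**Figure D1:**
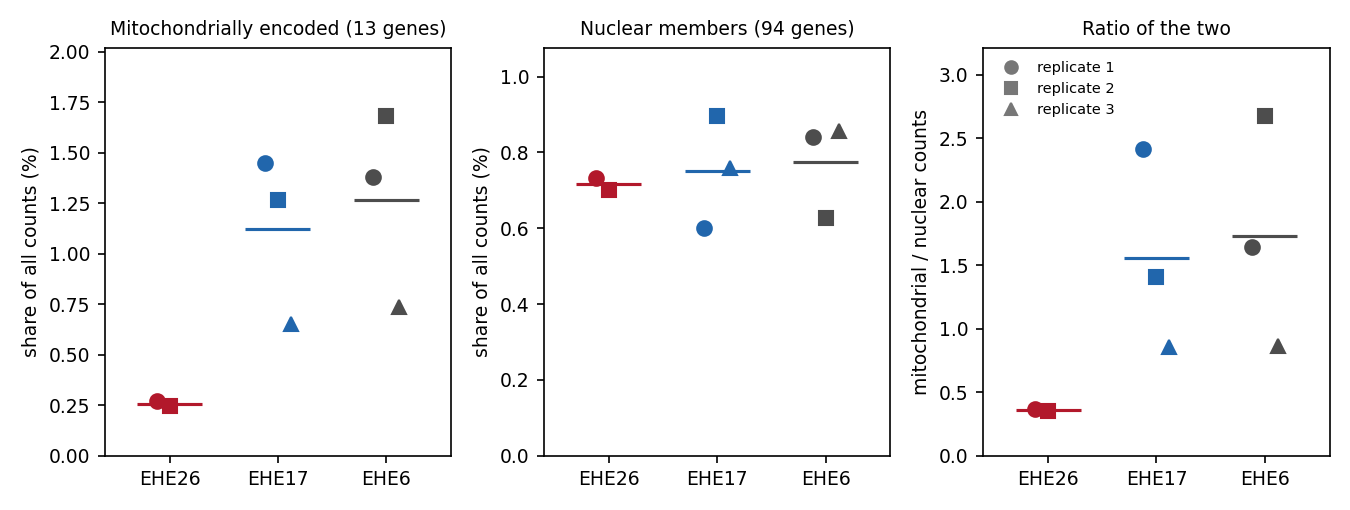
Share of all counts (%) held by the 13 mitochondrially encoded genes (left) and the 94 nuclear members (middle), and the ratio of these counts (right), by line; points are libraries, shapes replicate numbers and lines the means. The EHE26 libraries hold 0.268% and 0.244% mitochondrial counts, below all others, while the nuclear shares of the lines overlap.

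Among complex I genes of the mitochondrial genome, mt-Nd2 fell in EHE26. The gene, at chrM:3914-4951, encodes a proton-pumping core subunit and had 166 and 131 CPM in EHE26, 724, 742 and 463 CPM in EHE17 and 836, 726 and 566 CPM in EHE6. No EHE26 library reached a library of the other lines. Its log2 fold change was -2.25 ± 0.34 against EHE6 (edgeR adjusted p = 0.0230) and -2.11 ± 0.34 against EHE17 (edgeR adjusted p = 0.0348), adjusted over all 18882 tested genes. It was the only member of all 100 tested that passed an adjusted p of 0.05 in either comparison, where 0.159% of all tested genes were called lower in EHE26 against EHE6 and 0.185% against EHE17 (1.26% and 1.08% in either direction). Over 17 alternative settings its adjusted p ranged from 9.92e-09 to 0.244 against EHE6 and from 1.56e-07 to 0.308 against EHE17.

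The remaining complex I genes lay at negative values that did not pass the adjusted threshold. mt-Nd1, at chrM:2751-3707, a core subunit near the quinone site, had 307 and 326 CPM in EHE26, 997, 778 and 595 CPM in EHE17 and 1199.8, 1069 and 791 CPM in EHE6, and its log2 fold change was -1.69 ± 0.33 against EHE6 (edgeR adjusted p = 0.0599) and -1.32 ± 0.32 against EHE17 (edgeR adjusted p = 0.115). mt-Nd4, at chrM:10167-11544, a proton pump subunit, had 113 and 84.6 CPM in EHE26, 734, 601 and 331 CPM in EHE17 and 806, 845 and 302 CPM in EHE6, with log2 fold changes of -2.72 ± 0.56 against EHE6 (edgeR adjusted p = 0.0749) and -2.49 ± 0.55 against EHE17 (edgeR adjusted p = 0.0897). In both genes the EHE26 libraries lay below all 6 others. mt-Nd5, at chrM:11742-13565, another pump subunit, had 275 and 192 CPM in EHE26, 1607, 1284 and 831 CPM in EHE17 and 1505, 1933 and 492 CPM in EHE6. Its log2 fold change was -2.49 ± 0.61 against EHE6 (edgeR adjusted p = 0.126) and -2.41 ± 0.61 against EHE17 (edgeR adjusted p = 0.125). EHE6 replicate 3 was the lowest library of mt-Nd5 outside EHE26. mt-Nd6, at chrM:13552-14070, is the member encoded on the strand opposite to all the others, and had 38.2 and 45.0 CPM in EHE26, 255, 188 and 134 CPM in EHE17 and 274, 306 and 64.2 CPM in EHE6. Its log2 fold change was -2.37 ± 0.65 against EHE6 (edgeR adjusted p = 0.167) and -2.21 ± 0.65 against EHE17 (edgeR adjusted p = 0.169). The strand setting of the counting is not given in the sources used here, so reads of mt-Nd6 cannot be told apart from antisense RNA of the same stretch.

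Cytochrome b and the catalytic subunit of cytochrome c oxidase were also below all other libraries in EHE26, without passing the adjusted threshold. mt-Cytb, the only mitochondrially encoded subunit of complex III, at chrM:14145-15288, had 421 and 307 CPM in EHE26, 1298, 823 and 462 CPM in EHE17 and 1513, 1543 and 1364 CPM in EHE6. The 3 EHE6 libraries lay close together, above every EHE17 library, and both EHE26 libraries lay below all others. The log2 fold change of mt-Cytb was -2.02 ± 0.45 against EHE6 (edgeR adjusted p = 0.0949) and -1.24 ± 0.43 against EHE17 (edgeR adjusted p = 0.229). mt-Co1, which carries the oxygen-reducing centre of complex IV, at chrM:5328-6872, had 1411 and 1446 CPM in EHE26, 8001, 8970.3 and 3505 CPM in EHE17 and 8211, 9976 and 3292 CPM in EHE6. It alone made up 47.6% to 66.5% of the mitochondrial counts of a library, so the summed share follows it most. Its log2 fold change was -2.33 ± 0.60 against EHE6 (edgeR adjusted p = 0.142) and -2.26 ± 0.60 against EHE17 (edgeR adjusted p = 0.140), and replicate 3 was the lowest library of mt-Co1 in both other lines.

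The other 6 genes were read at far lower levels, and 5 of them are those with near-complete annotated copies in nuclear DNA. Only annotated transcripts were searched, so a copy of mt-Atp8 without an annotated gene would not have been seen. mt-Co2, which receives electrons from cytochrome c, had 5.72 and 6.51 CPM in EHE26, 30.6, 24.6 and 7.0 CPM in EHE17 and 32.1, 29.5 and 28.4 CPM in EHE6. mt-Co3, a structural subunit of complex IV, had 13.8 and 3.62 CPM in EHE26, 22.1, 48.3 and 8.97 CPM in EHE17 and 19.8, 18.9 and 7.58 CPM in EHE6, with EHE26 overlapping both other lines. mt-Atp6, part of the proton channel of the ATP synthase, had 3.66 and 2.37 CPM in EHE26, 10.7, 19.5 and 3.67 CPM in EHE17 and 14.3, 13.4 and 5.21 CPM in EHE6. EHE26 lay below all other libraries for mt-Co2 and mt-Atp6, at log2 fold changes of -2.29 against EHE6 and -1.76 against EHE17 for mt-Co2 and -1.87 against EHE6 and -1.90 against EHE17 for mt-Atp6. mt-Atp8, mt-Nd3 and mt-Nd4l, which encode small subunits, were at or under 6.31 CPM in every library. mt-Nd4l had the most negative log2 fold change of all members against EHE6, -2.89 ± 0.80 (edgeR adjusted p = 0.171), from 0.791 and 0.307 CPM in EHE26 and 4.12, 6.31 and 1.81 CPM in EHE6. Together these 6 genes held 0.00127% to 0.00924% of the counts of a library, and the annotated chromosome 1 copies held 0.00236% to 0.0129%. The copy of mt-Nd4, Gm28439, had 1.49 and 2.70 CPM in EHE26, 12.5, 9.34 and 4.43 CPM in EHE17 and 12, 13.9 and 3.76 CPM in EHE6, and a log2 fold change of -2.24 ± 0.72 against EHE6 (edgeR adjusted p = 0.222).

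**Figure D2:**
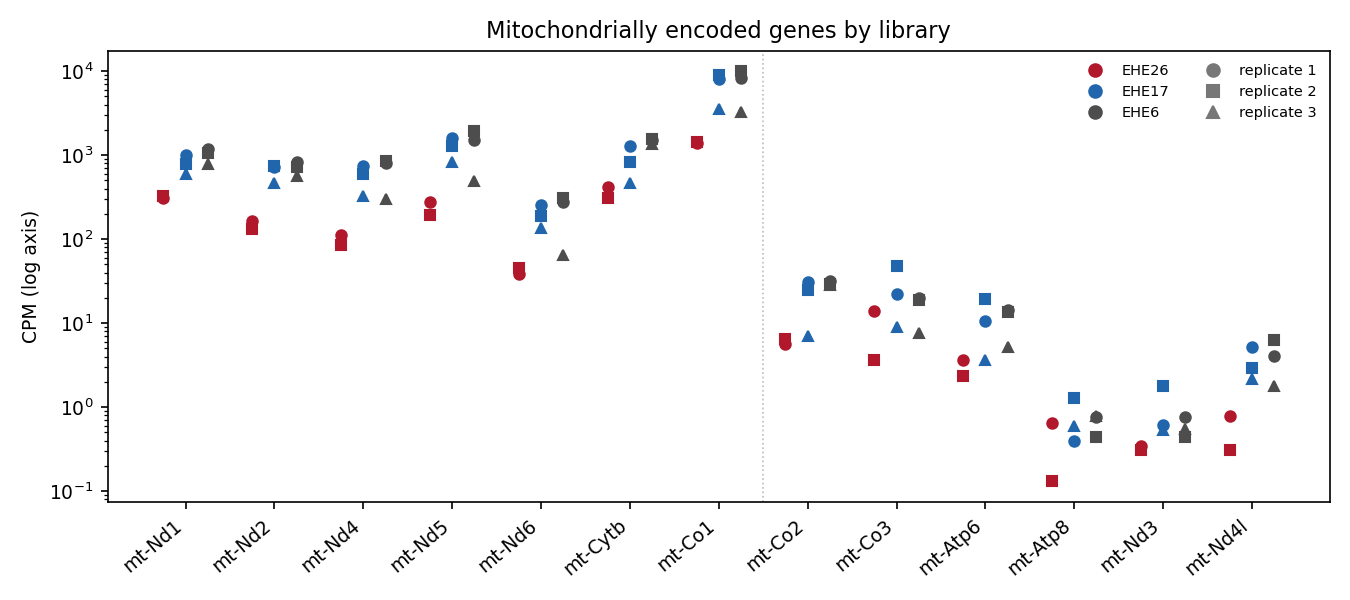
CPM (log axis) of each mitochondrially encoded gene in every library, with EHE26, EHE17 and EHE6 from left to right within a gene; shapes mark replicate numbers, and the dotted line sets apart the 6 genes of low count. For the 7 genes to the left of it both EHE26 libraries lie below all other libraries, and replicate 3 is the lowest library of EHE17 and of EHE6.

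Counted as a group, all 13 mitochondrially encoded genes had negative log2 fold changes in both EHE26 comparisons. The median was -2.25 against EHE6 and -1.90 against EHE17, where the medians of all tested genes were -0.11 and -0.11. In 11 of the 13 the EHE26 libraries lay below all EHE6 libraries, where 15.3% of all tested genes did, and in 11 below all EHE17 libraries, where 20.3% did. At an unadjusted p under 0.05, 10 of 13 were lower in each comparison, where 9.04% and 9.03% of all tested genes were. Both comparisons use the same EHE26 libraries. Over the 7 genes of high count the medians were -2.33 and -2.21, and over the other 6 -1.35 and -1.68, a grouping made after the levels were seen.

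How many of these genes were called turned on single libraries and on the test. Against EHE6, edgeR called 1, and 0 without replicate 1 or replicate 2 of EHE26 or of EHE6. It called 3 without EHE17 replicate 3 and 8 without EHE6 replicate 3, where 0.263% and 4.21% of all tested genes were called lower. Against EHE17 it called 1, and 0 when replicate 1 or 2 of any line was left out. It called 2 without EHE17 replicate 3 and 6 without EHE6 replicate 3, where 0.174% and 3.55% of all tested genes were called lower. With both replicate 3 libraries left out it called 10 of 13 lower in each comparison. There 14.2% of all tested genes were called lower against EHE6 and 14% against EHE17 (24% and 23.2% in either direction). The left-out libraries scored 41.7 (EHE17) and 128 (EHE6) on the first principal component, nearer to EHE26 (126 and 148) than replicates 1 and 2. Line and what sets replicate 3 apart cannot be told apart in that setting. With all libraries in the fit they are separated only in part, since both EHE26 libraries scored on the side of replicate 3. With the replicate number as a block, 10 genes were called against EHE6 and 8 against EHE17, where 4.16% and 4.99% of all tested genes were called lower. Without the filter on low counts, 8 and 5 were called, where 0.565% and 0.853% were lower, and with the compared lines alone 4 were called against EHE17, where 1.65% were lower. With EHE26 and EHE6 alone in the fit 1 was called, where 126 of 17730 tested genes were called in either direction. It was mt-Co2 (edgeR adjusted p = 0.0385), while mt-Nd2 was not called. DESeq2 called 9 against EHE6 and 8 against EHE17, where it called 4.95% and 5.47% of all tested genes lower. All of these calls were lower in EHE26.

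The mitochondrial genes were also lower in replicate 3 within a line. Replicate 3 minus the mean of replicates 1 and 2, on the log2 CPM scale, had a median of -0.79 over the 13 genes in EHE17, with 13 negative, and of -1.28 in EHE6, with 12 negative. Over the 87 nuclear members the medians were 0.16 and 0.09. The difference in mt-Nd6 was -2.16 in EHE6, and in mt-Cytb it was -0.16. In a fit of both EHE26 libraries with the replicate 3 library of EHE17 and that of EHE6, which assumes that a lone library varies as the EHE26 pair does, the mitochondrial median was -1.21 against EHE6 and -0.91 against EHE17, so it stayed negative and was nearer to 0. In that setting mt-Nd2 was at -1.93 ± 0.24 against EHE6 (edgeR adjusted p = 0.0441) and -1.64 ± 0.24 against EHE17 (edgeR adjusted p = 0.0453). There edgeR called 1 mitochondrial gene against EHE6, where 0.363% of all tested genes were lower, and 4 against EHE17, where 1.15% were. mt-Co3 was at 0.20 against EHE6 there, the only positive value of a mitochondrial gene in the 2 comparisons.

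Marker levels of other cell types and states also differed between the libraries. Summed over 8 proliferation genes (Mki67, Top2a, Ccnb1, Cdk1, Bub1, Aurka, Plk1 and Birc5), none at 0 in any library, they were 1059 and 1039.9 CPM in EHE26, 233, 387 and 1189 CPM in EHE17 and 624, 317 and 1936 CPM in EHE6. Summed over 10 endothelial genes, none at 0 in any library, they were 4619.9 and 3784 CPM in EHE26, 8006, 8863 and 5335 CPM in EHE17 and 9758, 11159 and 2614 CPM in EHE6. Replicate 3 was the highest library of its line for the first list and the lowest for the second, and EHE26 lay within the range of the other libraries for both. The endothelial list had median log2 fold changes of -1.59 against EHE6 and -1.18 against EHE17, with 10 and 9 of 10 negative. EdgeR called 0 of 10, where 1.26% and 1.08% of all tested genes were called. At an unadjusted p under 0.05, 4 and 3 of 10 were lower, where 9.04% and 9.03% of all tested genes were. Summed over 4 epithelial genes (Epcam, Krt8, Krt18 and Cdh1) the values were 2.65 and 28.4 CPM in EHE26, 18.9, 29.2 and 0.803 CPM in EHE17 and 34.9, 19.4 and 89.6 CPM in EHE6. Of these 4 genes, 1 and 1 were above 1 CPM in EHE26, 4, 4 and 0 in EHE17 and 4, 4 and 1 in EHE6. Their median log2 fold change in EHE26 was -7.23 against EHE6, with 4 negative and 0 called. Against EHE17 it was -6.89, with 3 negative, 1 positive and 0 called. Summed over 6 striated and cardiac muscle genes the values were 30.4 and 191 CPM in EHE26, 4.57, 2.98 and 1.12 CPM in EHE17 and 6.73, 10.4 and 3.11 CPM in EHE6, with both EHE26 libraries above all others. Nearly all of the EHE26 sum was Tnnt2, a cardiac troponin, which had 30.4 and 191 CPM in EHE26, 2.80, 0.266 and 1.08 CPM in EHE17 and 3.10, 6.41 and 2.96 CPM in EHE6 and was called in EHE26 against EHE17, at 6.32 ± 1.12 (edgeR adjusted p = 0.0473), while 4 and 5 of the 6 genes, Myh6 and Myh7 among them, were at 0 in the EHE26 libraries. Summed over 6 smooth muscle and pericyte genes the values were 92.4 and 123 CPM in EHE26, 18.6, 60.4 and 7.54 CPM in EHE17 and 671, 281 and 201 CPM in EHE6, where Cspg4, a pericyte proteoglycan, was called in EHE26 against EHE17, at 6.08 ± 0.95 (edgeR adjusted p = 0.0323). Summed over 6 fibroblast genes they were 427 and 186 CPM in EHE26, 177, 261 and 35.8 CPM in EHE17 and 45.5, 56.3 and 268 CPM in EHE6, and over 6 leukocyte genes 4.95 and 8.58 CPM in EHE26, 7.58, 6.81 and 31.4 CPM in EHE17 and 4.34, 8.20 and 11.9 CPM in EHE6, with 0 called in either list. For all of these lists, the share of all tested genes called in EHE26 was 1.26% against EHE6 and 1.08% against EHE17. The part of these markers in the difference of the mitochondrial genes was not tested. Genes for brown fat (Ucp1 and Cidea), a cell type rich in mitochondria, were summed at no more than 0.216 CPM in any library.

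Mitochondrial ribosomal RNA, which comes from the same genome but is no member, had a different order of libraries. Its share of all counts was 0.0254 and 0.0266% in EHE26, 0.0647, 0.125 and 0.0707% in EHE17 and 0.0553, 0.0645 and 0.114% in EHE6, so replicate 3 was not the lowest library of EHE17 or EHE6. mt-Rnr1, the small subunit RNA, had 63.4 and 68.5 CPM in EHE26, 131, 259 and 163 CPM in EHE17 and 123, 123 and 162 CPM in EHE6, with a log2 fold change of -1.04 ± 0.34 against EHE6 (edgeR adjusted p = 0.226) and -1.48 ± 0.34 against EHE17 (edgeR adjusted p = 0.101). mt-Rnr2, the large subunit RNA, had 198 and 209 CPM in EHE26, 479, 1075 and 526 CPM in EHE17 and 455, 509 and 911 CPM in EHE6, with a log2 fold change of -1.62 ± 0.47 against EHE6 (edgeR adjusted p = 0.184) and -1.77 ± 0.48 against EHE17 (edgeR adjusted p = 0.145). Both EHE26 libraries lay below all others for both. Since polyadenylated RNA was selected, the level of ribosomal RNA here depends on how much of it passed that step.

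With all 8 libraries, edgeR called no nuclear member in any comparison. At an adjusted p under 0.05 it called 0 of 87 in EHE26 against EHE6 and 0 of 87 in EHE26 against EHE17, where 1.26% and 1.08% of all tested genes were called, so the count is near that of all genes. Unadjusted, 2 of 87 were under 0.05 against EHE6 and 2 of 87 against EHE17, all lower, where 15.9% and 16.6% of all tested genes were under 0.05. DESeq2 called 0 against EHE6, where it called 8.74% of all tested genes, and 1 against EHE17, where it called 9.38%. With replicates 1 and 2 of each line only, edgeR called 4 against EHE6 and 4 against EHE17, 2 lower and 2 higher in each, where 24% and 23.2% of all tested genes were called. The median log2 fold change was 0.05 against EHE6 and 0.06 against EHE17, and 76 and 71 of 87 lay within 0.5 of 0. Against EHE6, 7 nuclear members were higher and 7 lower without overlap between the libraries, where 16% and 15.3% of all tested genes were. Against EHE17, 7 were higher and 6 lower in this way, where 18.7% and 20.3% of all tested genes were. With single libraries left out the median ranged from -0.10 to 0.15 against EHE6 and from -0.11 to 0.18 against EHE17, so its sign was not fixed.

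**Figure D3:**
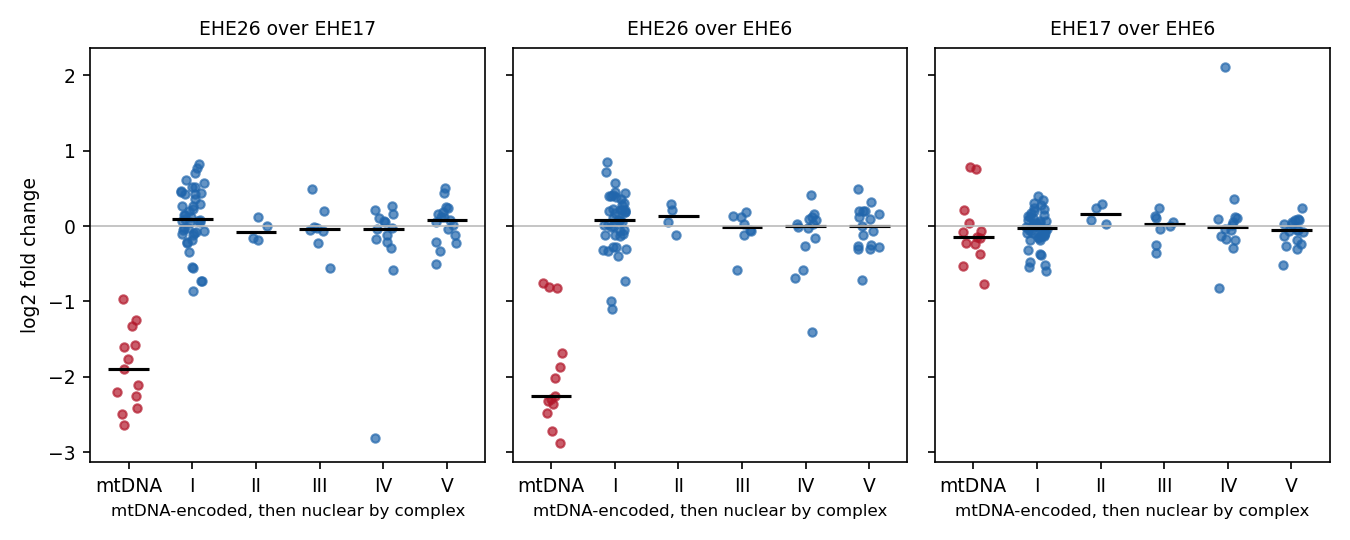
Log2 fold change of each tested member for EHE26 over EHE17, EHE26 over EHE6 and EHE17 over EHE6; the first column of each panel holds the 13 mitochondrially encoded genes (red), the others the nuclear members of complexes I to V with their associated factors (blue), and bars are medians. In both EHE26 panels all red points lie below 0, with medians of -1.90 and -2.25, and the blue medians lie near 0.

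Nuclear core subunits of complex I had overlapping levels in the lines. Ndufs1, an iron-sulphur subunit of the electron input arm, had 60.6 and 71.6 CPM in EHE26, 72.9, 53.9 and 79.9 CPM in EHE17 and 69.1, 73.9 and 71.7 CPM in EHE6, and Ndufv1, which binds the flavin, had 105 and 97.1 CPM in EHE26, 72.8, 131 and 105 CPM in EHE17 and 112, 71.6 and 103 CPM in EHE6. Their log2 fold changes were -0.11 against EHE6 and -0.06 against EHE17 for Ndufs1 and 0.08 against EHE6 and -0.03 against EHE17 for Ndufv1. Ndufs7, which carries the last iron-sulphur cluster before ubiquinone, had 84.4 and 61.7 CPM in EHE26, 41.4, 85.2 and 55.0 CPM in EHE17 and 76.8, 45.7 and 84.4 CPM in EHE6. In all 3 the libraries of the lines overlapped. Over the 36 nuclear subunits of complex I the median was 0.08 against EHE6 and 0.09 against EHE17, with 33 and 28 within 0.5 of 0.

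A few accessory subunits and assembly factors of complex I differed more, without passing the adjusted threshold. Ndufs4, an accessory subunit needed for a stable electron input arm, had 22.3 and 16.6 CPM in EHE26, 28.4, 29.8 and 38.9 CPM in EHE17 and 38.1, 26.9 and 31.6 CPM in EHE6. Both EHE26 libraries lay below all others, and the log2 fold change was -0.72 ± 0.29 against EHE6 (edgeR adjusted p = 0.299) and -0.73 ± 0.29 against EHE17 (edgeR adjusted p = 0.275). The assembly factor Ndufaf2 had 9.01 and 7.61 CPM in EHE26, 9.24, 12.8 and 19.4 CPM in EHE17 and 20.2, 11.3 and 21.9 CPM in EHE6, and its log2 fold change was -1.10 ± 0.44 against EHE6 (edgeR adjusted p = 0.301) and -0.73 ± 0.44 against EHE17. Another assembly factor, Ndufaf4, was at -0.99 against EHE6 and -0.86 against EHE17, with overlapping libraries. Ndufaf3, also an assembly factor, had 16.4 and 17.3 CPM in EHE26, 7.75, 12.1 and 11.3 CPM in EHE17 and 8.82, 6.07 and 13.3 CPM in EHE6, so that EHE26 was above all others, at log2 fold changes of 0.85 against EHE6 and 0.70 against EHE17. Ndufa13 was at 0.71 against EHE6 and 0.83 against EHE17, Ndufb3 at 0.57 against EHE6 and 0.45 against EHE17 and Ndufb10 at 0.22 against EHE6 and 0.77 against EHE17. Of the windows of Ndufa13, 28.5% are shared with another annotated transcript. The 8 assembly factors with the prefix Ndufaf had medians of -0.04 and -0.03.

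Complex II, which has no mitochondrially encoded subunit, had no gene that passed the test. Sdha, the flavoprotein that oxidises succinate, had 274 and 257 CPM in EHE26, 265, 272 and 352 CPM in EHE17 and 282, 266 and 321 CPM in EHE6. Its log2 fold change was -0.13 ± 0.24 against EHE6 and -0.16 ± 0.24 against EHE17. Sdhb, the iron-sulphur subunit, was at 0.29 against EHE6 and 0.00 against EHE17, and the membrane anchors Sdhc and Sdhd were at 0.05 against EHE6 and -0.18 against EHE17 and at 0.21 against EHE6 and 0.13 against EHE17. Their edgeR adjusted p-values were 0.852, 0.774, 0.950 and 0.773 for Sdha, Sdhb, Sdhc and Sdhd against EHE6. The libraries of the lines overlapped for all 4 genes.

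In complex III every nuclear subunit among the members lay nearer to 0 than mt-Cytb in both EHE26 comparisons. Uqcrfs1, the Rieske iron-sulphur protein, had 77.0 and 95.5 CPM in EHE26, 72.4, 117 and 74.8 CPM in EHE17 and 94.9, 72.1 and 88.2 CPM in EHE6, and Uqcrc1, a matrix-side core protein, had 141 and 159 CPM in EHE26, 130.2, 249 and 146 CPM in EHE17 and 209, 138 and 140.1 CPM in EHE6. Log2 fold changes were 0.02 against EHE6 and -0.03 against EHE17 for Uqcrfs1 and -0.11 against EHE6 and -0.23 against EHE17 for Uqcrc1, where those of mt-Cytb were -2.02 against EHE6 and -1.24 against EHE17. Over the 8 nuclear subunits the medians were -0.02 and -0.04. Cyc1, the cytochrome c1 subunit, has a symbol outside the prefixes and is no member. It had 72.8 and 84.7 CPM in EHE26, 79.5, 126 and 88.5 CPM in EHE17 and 185, 120.3 and 110.3 CPM in EHE6, and was at -0.81 ± 0.33 against EHE6 (edgeR adjusted p = 0.300).

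Complex IV has pairs of subunit isoforms, a ubiquitous form and a form known from muscle, lung or testis. The ubiquitous forms were abundant in every library. Cox4i1 had 291 and 216 CPM in EHE26, 167, 394 and 222 CPM in EHE17 and 324, 189 and 209 CPM in EHE6, Cox6a1 had 205 and 206 CPM in EHE26, 102, 227 and 184 CPM in EHE17 and 236, 124 and 217 CPM in EHE6 and Cox8a had 119 and 126 CPM in EHE26, 83.8, 125 and 121 CPM in EHE17 and 122, 88.3 and 128 CPM in EHE6. Cox6b1 and Cox7a2, the general forms of 2 further subunits, were at -0.02 against EHE6 and -0.12 against EHE17 and at 0.03 against EHE6 and -0.03 against EHE17. None of these 5 had libraries of a line apart from the others, in either EHE26 comparison.

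The forms known from other tissues were at or near 0. Cox4i2, known from lung and from cells short of oxygen, was listed at 0 in both EHE26 libraries and EHE6 replicate 3, and had at most 0.199 CPM elsewhere. Cox6a2 and Cox8b, the heart and skeletal muscle forms, had at most 0.367 and 0.162 CPM, and Cox7b2 at most 0.263 CPM. Cox8c had no read in any library. Ndufa4l2, a relative of the complex IV subunit Ndufa4, had at most 0.221 CPM. These 6 genes and a further identifier with the symbol Atp5o and no read were not tested. Cox7a1, the muscle form of Cox7a2, passed the filter with 0.0736 and 0.175 CPM in EHE26, 0.261, 0.155 and 0.140 CPM in EHE17 and 0.229, 0.282 and 0.483 CPM in EHE6 and was at -1.40 ± 0.85 against EHE6 (edgeR adjusted p = 0.456). Ndufa4 had 84.1 and 82.1 CPM in EHE26, 66.5, 96.0 and 75.1 CPM in EHE17 and 93.6, 56.0 and 73.1 CPM in EHE6, and Cox7a2l, a supercomplex assembly factor, had 182 and 170.4 CPM in EHE26, 144, 260.1 and 104 CPM in EHE17 and 145, 122 and 131 CPM in EHE6.

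Cox6b2, the isoform known from testis, was the nuclear member whose libraries separated EHE17 from both other lines. It had 0.552 and 0.526 CPM in EHE26, 2.12, 3.53 and 5.74 CPM in EHE17 and 1.41, 1.11 and 0.0840 CPM in EHE6. All 3 EHE17 libraries were above all other libraries, and EHE6 replicate 3 was the lowest. The log2 fold change was -2.81 ± 1.10 for EHE26 against EHE17 (edgeR adjusted p = 0.270) and 2.12 ± 0.91 for EHE17 against EHE6 (edgeR adjusted p = 0.720). It was called in EHE26 against EHE17 by DESeq2 (adjusted p = 0.0439) and by edgeR without EHE6 replicate 3 (adjusted p = 0.0368), at log2 fold changes of -2.82 and -2.82. With EHE17 and EHE6 each reduced to replicate 3, a setting chosen after seeing the data in which 2.77% of all tested genes were called, its call in EHE17 against EHE6 set 1 library against 1 and has no replicate check. Its highest level was 5.74 CPM, against at least 73.0 CPM for Cox6b1 in every library.

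The ATP synthase had the most abundant nuclear members. Atp5b, the catalytic beta subunit, had 909.8 and 919 CPM in EHE26, 791, 1391 and 1019 CPM in EHE17 and 1174, 853 and 1306 CPM in EHE6, and Atp5a1, the alpha subunit, had 549 and 570.1 CPM in EHE26, 567, 968 and 581 CPM in EHE17 and 759, 602 and 713 CPM in EHE6. Log2 fold changes were -0.28 against EHE6 and -0.22 against EHE17 for Atp5b and -0.31 against EHE6 and -0.33 against EHE17 for Atp5a1, where those of the mitochondrially encoded mt-Atp6 were -1.87 against EHE6 and -1.90 against EHE17. Over the 16 nuclear subunits tested the medians were -0.04 and 0.07, and 15 lay within 0.5 of 0 in each comparison. Atpif1, the inhibitor of the synthase, which is no member by its symbol, had 29.3 and 21.3 CPM in EHE26, 12, 18 and 16.3 CPM in EHE17 and 26.6, 15.5 and 15.8 CPM in EHE6, and was at 0.39 against EHE6 and 0.71 against EHE17. Atp5g2, 1 of 3 genes for the membrane ring subunit, was the lowest subunit of this complex against EHE6, at -0.72 ± 0.42. Of 87 tested nuclear members, 16 share at least 20% of their 50-base windows with another annotated transcript, among them Atp5l (84.8%), Atp5o (50.3%), Atp5h (47.9%) and Uqcrb (43.4%), and their counts are uncertain to that extent.

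Between EHE17 and EHE6 no member of either group passed the test. EdgeR called 0 of 13 mitochondrial and 0 of 87 nuclear members, where 0.143% of all tested genes were called. Unadjusted, 0 of 13 and 1 of 87 were under 0.05, where 6.9% of all tested genes were, and DESeq2 called 0 in both groups, where it called 2.22% of all tested genes. The medians were -0.14 for the mitochondrial and -0.01 for the nuclear members. The libraries of the 2 lines did not overlap for mt-Cytb alone among the 13 genes, at a log2 fold change of -0.77 ± 0.37 (edgeR adjusted p = 0.774), where 12.2% of all tested genes did not overlap. Besides Cox6b2, the highest nuclear values were 0.40 for Ndufb4 and 0.35 for Cox7a2l, and the lowest -0.82 for Cox7a1, -0.59 for Ndufa5 and -0.55 for Ndufb10, all with overlapping libraries.

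Levels per length set the mitochondrial genes into a steep order. mt-Co1 was highest, with means of 925 CPM per kb in EHE26, 4418 in EHE17 and 4634 in EHE6. mt-Cytb had 318 CPM per kb in EHE26, 753 in EHE17 and 1288 in EHE6, mt-Nd1 330.4 CPM per kb in EHE26, 826 in EHE17 and 1066 in EHE6 and mt-Nd5 128 CPM per kb in EHE26, 680.3 in EHE17 and 718 in EHE6. These 3 lay below mt-Co1 in every line. In EHE17 and EHE6 mt-Nd2, mt-Nd4 and mt-Nd6 followed, while in EHE26 mt-Nd2, at 143 CPM per kb, was above mt-Nd5. These genes had 683, 472 and 414 CPM per kb in EHE6. The neighbours mt-Nd5 and mt-Nd2 in EHE6 had SDs of 406 and 131 CPM per kb (n = 3), larger than the gap between them. mt-Co2 had 8.94 CPM per kb in EHE26, 30.3 in EHE17 and 43.8 in EHE6, and mt-Co3 11.1 CPM per kb in EHE26, 33.7 in EHE17 and 19.7 in EHE6. These are genes of the same complex as mt-Co1, and mt-Co2 and mt-Co3 are read at no more than 43.8 CPM per kb. Atp5b, the nuclear member of highest CPM, had 216 CPM per kb in EHE26, 252 in EHE17 and 262 in EHE6.

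**Figure D4:**
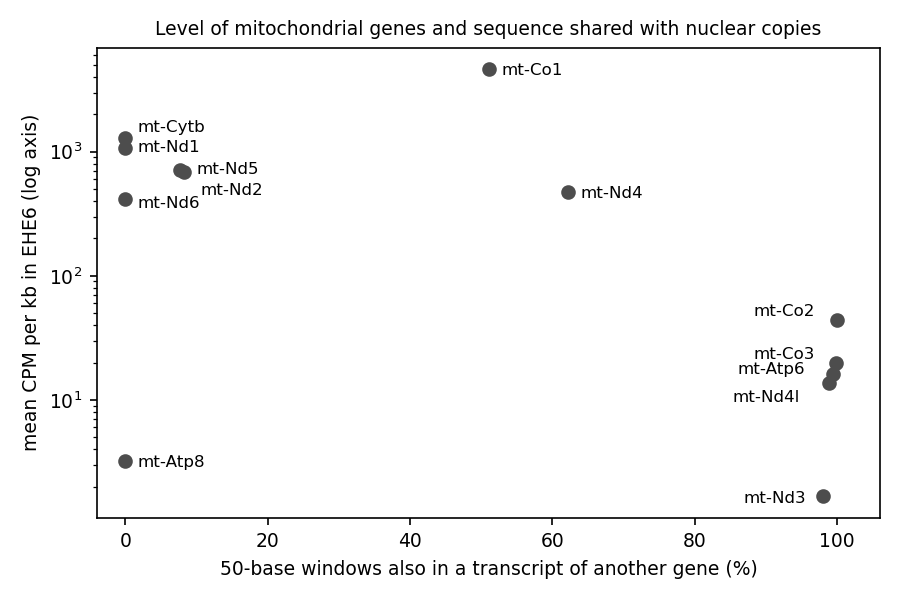
Mean CPM per kb in EHE6 (log axis) of each mitochondrially encoded gene against the percent of its 50-base windows also found in an annotated transcript of another gene. The 5 genes with at least 98.0% shared windows lie at or below 43.8 CPM per kb. mt-Atp8 is low with no window in an annotated transcript, and copies without an annotated gene were not searched.

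Genes that copy, transcribe and process mitochondrial DNA and its RNA were read as a list of their own. Of 27 listed genes 26 were tested and 0 were called in any comparison. In EHE26 against EHE6, 21 of 26 had negative values, with a median of -0.32, where 10691 of all 18882 tested genes were negative, with a median of -0.11. Under an unadjusted p of 0.05 were 3 of 26, all lower, where 9.04% of all tested genes were, so this count is near that of all genes. These were Tbrg4, a regulator of mitochondrial RNA, at -0.91 ± 0.29 (edgeR adjusted p = 0.217), Polg, the DNA polymerase of mitochondria, at -0.67 ± 0.29 (edgeR adjusted p = 0.312), and Lrpprc, which stabilises mitochondrial messenger RNA, at -0.62 ± 0.26 (edgeR adjusted p = 0.312). Against EHE17 the median was -0.20, with 0 under an unadjusted p of 0.05. In 12 of 26 genes EHE26 lay below all EHE6 libraries and in 0 above, where 15.3% and 16% of all tested genes did. Against EHE17 it lay below in 8 and above in 2, where 20.3% and 18.7% of all tested genes did.

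No gene of the core transcription machinery of mitochondria passed the test. Polrmt, the RNA polymerase, had 24.7 and 28.1 CPM in EHE26, 30.5, 46.4 and 33.1 CPM in EHE17 and 34.5, 31.7 and 33.7 CPM in EHE6, and was at -0.34 against EHE6 and -0.47 against EHE17. Tfam, which starts transcription and packs the DNA, had 38.1 and 36.9 CPM in EHE26, 40.9, 33.9 and 45.7 CPM in EHE17 and 42.8, 38.0 and 55.3 CPM in EHE6, and was at -0.27 against EHE6 and -0.10 against EHE17. Twnk, the DNA helicase, was at -0.45 against EHE6 and -0.27 against EHE17. EHE26 lay below the other lines for Polrmt and Twnk, and overlapped them for Tfam. In Lrpprc the values were 40.1 and 46.7 CPM in EHE26, 69.9, 53.8 and 67.1 CPM in EHE17 and 72.5, 75.4 and 52.2 CPM in EHE6, with EHE26 below all others.

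Regulators of nuclear respiratory genes were read as a further list of 13, with 0 called in any comparison. Their median log2 fold change in EHE26 was -0.26 against EHE6 and -0.57 against EHE17, with 9 of 13 negative in each. The medians of all tested genes were -0.11 and -0.11. Nrf1, which binds promoters of many respiratory genes, had 46.4 and 43.7 CPM in EHE26, 28.8, 35.2 and 42.2 CPM in EHE17 and 36.1, 33.4 and 65.6 CPM in EHE6. Gabpa, another such factor, was at 0.00 against EHE6 and -0.04 against EHE17, and Esrra at -0.13 against EHE6 and -0.14 against EHE17. The lines overlapped for Gabpa and Esrra. Pprc1, a coactivator of the PGC-1 family, had 35.0 and 48.7 CPM in EHE26, 79.1, 82.3 and 57.2 CPM in EHE17 and 108, 102 and 52.3 CPM in EHE6, and was at -1.06 ± 0.38 against EHE6 (edgeR adjusted p = 0.260). Ppargc1a, the coactivator PGC-1 alpha, had 0.681 and 0.395 CPM in EHE26, 2.26, 2.01 and 4.67 CPM in EHE17 and 0.714, 1.31 and 0.0840 CPM in EHE6, with all EHE17 libraries above all others, and was at 2.07 ± 0.91 for EHE17 against EHE6 (edgeR adjusted p = 0.728).

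Other genes that serve the chain lay near 0. Of 35 assembly factors outside the prefixes 34 were tested and 0 called, with medians of 0.05 and 0.15. Timmdc1, a complex I assembly factor, had 20.7 and 23.0 CPM in EHE26, 13.5, 14.5 and 18.1 CPM in EHE17 and 15.2, 13.2 and 12.2 CPM in EHE6, above all others in EHE26, and was at 0.69 ± 0.28 against EHE6 (edgeR adjusted p = 0.298). Electron carriers and feeders had medians of 0.00 and -0.13 over 16 genes, and Cycs, cytochrome c, was at -0.12 against EHE6 and 0.05 against EHE17. Mitochondrial ribosomal proteins, which are nuclear encoded and translate the 13 messenger RNAs, had medians of -0.06 and 0.03 over 77 tested genes, with 0 called.

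Promoters of the nuclear members were searched for sites of the factors above, within the 250 bases before the annotated start to 50 after it (RefSeq, GRCm38.p6). Of 93 nuclear members, leaving out the further Atp5o identifier, 76 had an entry. The Nrf1 core (GCGC, any base, then TGCGC), on either strand, was in 19 (25%), against 5.2% of 27025 genes. The Yy1 core AAGATGGCG was in 8 (10.5%), against 1.6%, and the ETS core CCGGAAGT, which Gabpa binds, in 5 (6.6%), against 4.3%, both on either strand. The share of all genes refers to windows of the same length, and a window may hold several motifs. A gene with several annotated starts was counted if any of its windows matched. The members and all genes were not matched for the number of starts or for base composition. A match is a string of letters in the window, not a measured site. The 250 bases before the start of Sdha, at chr13:74350241-74350490 on the minus strand, and of Cox6a1, at chr5:115348959-115349208 on the minus strand, are shown as members with more than a single Nrf1 match, with the matches in capitals.
Sdha: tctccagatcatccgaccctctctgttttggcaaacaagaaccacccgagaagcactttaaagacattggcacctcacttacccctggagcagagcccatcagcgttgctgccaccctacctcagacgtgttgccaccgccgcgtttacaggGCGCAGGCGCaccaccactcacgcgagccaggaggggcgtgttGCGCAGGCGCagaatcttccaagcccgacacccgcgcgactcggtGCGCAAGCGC
Cox6a1: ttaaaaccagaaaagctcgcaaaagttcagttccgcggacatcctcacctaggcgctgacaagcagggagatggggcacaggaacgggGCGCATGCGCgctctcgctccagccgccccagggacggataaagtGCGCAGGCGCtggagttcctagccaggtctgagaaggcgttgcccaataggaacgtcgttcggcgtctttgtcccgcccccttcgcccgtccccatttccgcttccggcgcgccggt

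Both genes lay near 0 in the comparisons, with log2 fold changes of -0.13 against EHE6 and -0.16 against EHE17 for Sdha and 0.09 against EHE6 and 0.27 against EHE17 for Cox6a1. Ndufs4, with the Yy1 core, was at -0.72 against EHE6 and -0.73 against EHE17, and Ndufs7, with the same core, at 0.08 against EHE6 and 0.27 against EHE17.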

How the data were processed

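Gene counts of 8 RNA sequencing libraries from 3 mouse EHE cell lines were used. Per the labels, libraries followed poly(A) selection with the NEBNext Ultra II kit. Per the submitters' processing notes, HISAT2 and the build mm10 were used by the authors. The counting tool, its annotation and its strand setting are not given in the sources used here. The values are the raw read counts per Ensembl gene that the authors deposited, unnormalised.

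Of 55401 identifiers, 55141 were in GENCODE M21 (GRCm38), which gave symbols and positions. After filterByExpr by line and TMM normalisation, 18882 genes were fitted with the quasi-likelihood test of edgeR 4.0.16 (R 4.3.3) on all 8 libraries, with no term but the line. Benjamini-Hochberg adjustment ran over all 18882 genes, the call threshold was 0.05, and the SE is the log2 fold change over the square root of F. The script was tested on simulated data. DESeq2 1.42.0, other normalisations, no filter, a replicate block and left-out libraries were alternatives, and 1 setting, the replicate 3 libraries with EHE26, was added after the data were seen. Across genes, departures of same-numbered EHE17 and EHE6 libraries correlated at 0.13, 0.18 and 0.57. Differently numbered libraries correlated more for replicates 1 and 2, at 0.54 (EHE17 replicate 2 with EHE6 replicate 1) and 0.62 (EHE17 replicate 1 with EHE6 replicate 2), so the numbers are not shown to mark pairs, and the block is an alternative only. The members, lists and named genes (all mitochondrial members, the 3 highest and 3 lowest nuclear members, core subunits and isoforms) were chosen with earlier results of these data known. Single genes named from the pathway lists, and Atp5g2, were chosen after their values were seen.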

Additional observations from a re-analysis of the deposited data

How the results depend on the processing

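Mitochondrially encoded members called, 1 in each EHE26 comparison, numbered 9 against EHE6 and 8 against EHE17 with DESeq2. There 4.95% and 5.47% of all tested genes were called lower. They numbered 8 and 5 with no filter on low counts (0.565% and 0.853%) and 10 and 8 with the replicate block (4.16% and 4.99%). With replicates 1 and 2 only they numbered 10 and 10, where 14.2% and 14% of all tested genes were called lower. Against EHE17 they numbered 4 with the 2 compared lines alone, where 1.65% of all tested genes were called lower. Against EHE6 they numbered 1 in that way, mt-Co2 in place of mt-Nd2, where 126 of 17730 tested genes were called. With one library left out they numbered 0 to 8 against EHE6 and 0 to 6 against EHE17. The most were called without EHE6 replicate 3, where 4.21% and 3.55% of all tested genes were called lower. Nuclear members called, 0 in all comparisons, numbered 4 against EHE6 and 4 against EHE17 with replicates 1 and 2 only. There 24% and 23.2% of all tested genes were called. Against EHE17, 1 was called with DESeq2, where 9.38% of all tested genes were called. With a library left out 0 to 1 were called against EHE17, the 1 without EHE6 replicate 3, where 1441 of 19010 tested genes were called. The last setting held the replicate 3 libraries and EHE26 alone. In it EHE17 and EHE6 are 1 library each and are assumed to vary like EHE26. The mitochondrial median log2 fold change was -1.21 against EHE6 and -0.91 against EHE17 in that last setting. With a library left out it ranged from -2.33 to -2.01 against EHE6, from -2.30 to -1.62 against EHE17 and from -0.46 to 0.19 in EHE17 against EHE6. The replicate block changed no call of a nuclear member and no call between EHE17 and EHE6, where the mitochondrial median was -0.09 under it. Numbers of EHE26 libraries did not pair with those of the other lines (correlations from -0.11 to 0.18). No mitochondrially encoded member that passed the threshold changed sign. Nuclear calls with replicates 1 and 2 only were less fixed in direction. Ndufaf4 was called at -1.35 and Ndufaf7 at 0.96 against EHE6, and Ndufa5 at 1.23 against EHE17. For these genes the EHE26 mean CPM differed from replicate 3 of the compared line in the opposite direction. For Ndufaf3, Ndufb10 and Cox6b2 the direction was the same, and Cox8b had no read in those libraries. Cox4i2 had no read in EHE26, so an opposite direction was not possible for it. Neither Cox4i2 nor Cox8b passed the filter on low counts in the fit of all libraries. With 2 or 3 libraries a line and a wide spread, smaller changes may be missed, and a missed threshold does not show equal levels. The cause of the dependence on single libraries was not tested.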

Other observations

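Genes around the respiratory chain were read as further lists. Of 16 genes of the citric acid cycle and its entry, 0 were called in any comparison, with medians of -0.08 in EHE26 against EHE6 and -0.08 in EHE26 against EHE17. Pdha1, a subunit of pyruvate dehydrogenase, had 112 and 109 CPM in EHE26, 60.4, 59.6 and 61.1 CPM in EHE17 and 69.4, 70.7 and 98.0 CPM in EHE6. Both EHE26 libraries lay above all others, at 0.88 ± 0.23 against EHE17 (edgeR adjusted p = 0.143). Cytosolic ribosomal proteins had medians of -0.04 and -0.02 over 97 tested genes, with 0 called.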
